A study of Homo sapiens with 18 samples.

Results

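RNAseq values were examined for 9 genes that carry or restrain the type I interferon signal, in 2 human cell lines transfected with microRNA mimics of the MIR-28 family. The genes were chosen by symbol and comprise the receptor chains IFNAR1 and IFNAR2, the kinases JAK1 and TYK2, the ISGF3 subunits STAT2 and IRF9, the interferon-regulated transcription factors IRF1 and IRF7, and the inhibitor SOCS1. All 9 were found in both tables of values, among 15358 genes for MCF10A and 15257 for hTERT RPE-1, and all passed the filter on low values in both. MCF10A is a near-normal breast epithelial line and hTERT RPE-1 (RPE-1 here) is a near-normal retinal pigment epithelial line that carries a telomerase gene. Each line was treated for 72 h with 30 nM of 1 of 3 agents, namely siNT, a mimic of hsa-miR-28-5p (miR-28 here) or a mimic of hsa-miR-708-5p (miR-708). The control siNT is a non-targeting siRNA and not a mimic, and no untransfected cells are among the 18 libraries. Each of the 6 groups had 3 biological replicates, numbered 7, 8 and 9 in MCF10A and 1, 2 and 3 in RPE-1. The questions were how high each gene stood with siNT in the 2 lines, and how each mimic changed it.

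Type I interferons bind a receptor made of IFNAR1 and IFNAR2. The kinases TYK2 and JAK1 are attached to these chains and phosphorylate STAT proteins, among them STAT2, which acts with IRF9 in the complex ISGF3. ISGF3 binds the interferon-stimulated response element (ISRE) in the promoters of antiviral genes and of several of its own parts, so the pathway feeds back on itself. Other STAT complexes bind a different sequence, the gamma-activated site (GAS). SOCS1 and USP18 are induced inhibitors that act at the kinases and at the receptor. Epithelial cells carry this pathway and also make interferons when they sense foreign RNA.

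In RefSeq annotation of GRCh38.p14, IFNAR1 is at chr21:33324395-33359864 and IFNAR2 at chr21:33229938-33265664, both on the plus strand. JAK1 is at chr1:64833229-65067746 and TYK2 at chr19:10350533-10380572, both on the minus strand. STAT2 is at chr12:56341597-56360107 on the minus strand and IRF9 at chr14:24161265-24166565 on the plus strand. IRF1 is at chr5:132481609-132490773, IRF7 at chr11:612555-615950 and SOCS1 at chr16:11254417-11256204, all on the minus strand. JAK1 overlaps RAVER2 on the other strand, SOCS1 overlaps RMI2 and IRF1 overlaps IRF1-AS1. Whether the reads were counted by strand is not given in the sources used here, so reads of these pairs may be divided imprecisely. SOCS1 is the most exposed, since RMI2 averaged 154 in MCF10A and 206 in RPE-1, values above every SOCS1 value.

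The mature sequence of hsa-miR-708-5p is shown because its seed, bases 2 to 8 and in capitals here, is the part that the study states both mimics share. It is encoded at chr11:79402077-79402099 on the minus strand and has 23 bases.
hsa-miR-708-5p: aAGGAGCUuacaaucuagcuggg

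The 3′ UTR of 1 GENCODE 44 transcript per gene was searched for AGCTCCT, which pairs with bases 2 to 8 of the miRNA, for GCTCCTA, and for the shorter GCTCCT. One of the 7-letter matches was present in 18.5% of 14152 listed genes and the shorter match in 35.5%. Among the 9 genes, JAK1 and IRF1 had a 7-letter match and IFNAR2 had a shorter one. The matches are printed with flanking bases in the coordinates of hg38 (JAK1 and IRF1 on the minus strand, IFNAR2 on the plus strand), and the matching letters are in capitals.
JAK1, base 594 of a 3′ UTR of 1333 bases, chr1:64833954-64833976: agtggcttAGCTCCTgttccttt
IRF1, base 334 of a 3′ UTR of 2342 bases, chr5:132483603-132483625: actggctgGCTCCTAggggaaca
IRF1, base 2017 of the same 3′ UTR, chr5:132481921-132481942: gattctggGCTCCTggggccca
IFNAR2, base 1221 of a 3′ UTR of 2164 bases, chr21:33264713-33264734: gagcaattGCTCCTgccggtaa

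No match was found in the 3′ UTRs of IFNAR1, TYK2, STAT2, IRF9, IRF7 or SOCS1. A match is a description of these letters and shows neither binding nor repression.

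The RefSeq promoter windows, 250 bases before to 50 after the annotated start in GRCh38.p14, were matched by symbol for 7 of the 9 genes (IFNAR1, JAK1, TYK2, STAT2, IRF9, IRF1 and SOCS1). They were searched on both strands for the ISRE core GAAANNGAA, found in 8.11% of 35116 windows, and for the GAS motif TTCNNNGAA, found in 7.66%. Counted by gene, the shares were 9.86% and 9.38% of 27305 genes. The 2 motifs can share bases, but each window with a match here held only 1. The windows of IRF9 and IRF1 are printed because each holds a GAS match, in capitals. In IRF9 the match starts 63 bases before the start and in IRF1 124 bases before it.
IRF9, chr14:24161015-24161314, plus strand: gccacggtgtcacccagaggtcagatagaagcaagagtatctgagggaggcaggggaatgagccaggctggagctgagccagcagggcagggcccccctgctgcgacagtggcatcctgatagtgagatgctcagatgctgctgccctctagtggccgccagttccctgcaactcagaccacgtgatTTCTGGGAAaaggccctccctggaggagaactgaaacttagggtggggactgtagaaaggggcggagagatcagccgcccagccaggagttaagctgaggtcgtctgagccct
IRF1, chr5:132490724-132491023, minus strand: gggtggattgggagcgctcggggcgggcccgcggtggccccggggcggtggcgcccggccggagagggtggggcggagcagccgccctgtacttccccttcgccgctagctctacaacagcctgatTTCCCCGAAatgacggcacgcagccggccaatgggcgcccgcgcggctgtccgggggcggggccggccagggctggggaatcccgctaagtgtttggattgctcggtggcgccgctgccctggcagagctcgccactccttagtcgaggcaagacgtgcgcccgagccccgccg

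The window of SOCS1 held an ISRE core, in capitals, 113 bases before the start, and is printed as the other window with a match.
SOCS1, chr16:11256155-11256454, minus strand: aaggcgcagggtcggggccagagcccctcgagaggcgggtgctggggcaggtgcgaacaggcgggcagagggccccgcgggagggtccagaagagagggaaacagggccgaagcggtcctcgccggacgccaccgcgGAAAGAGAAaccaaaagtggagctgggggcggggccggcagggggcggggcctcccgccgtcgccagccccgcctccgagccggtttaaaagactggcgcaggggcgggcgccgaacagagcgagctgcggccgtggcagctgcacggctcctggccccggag

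No match was found in the windows of IFNAR1, JAK1, TYK2 and STAT2, which says only that these letters are not in them. Nor does a match show binding or regulation, and its part in any change of these genes was not tested.

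Estimated depth ran from 19.4 to 31.7 M reads in MCF10A libraries and from 23.8 to 40.3 M in those of RPE-1, where 3 reads equalled values of 2.49–4.02 and 2.35–4.41. One library stood apart among those treated with miR-28 in RPE-1, replicate 1, in which rows of ribosomal RNA genes took 16.7% of the summed values, against 4.84–7.88% in the other 8 libraries of the line. In MCF10A treated with miR-708, replicate 7 was the lowest of its group for STAT2, IRF9, IRF1 and IRF7. It was picked out by these values themselves, so fits without it give larger rises of these genes by construction. Replicate 1 of miR-28 in RPE-1 was the lowest mimic library of its line for the same genes. Fits without that library also give larger rises of them by construction. Several results of the 9 genes and of the lists that rest on these libraries are given with and without them, and the others only with them. All 7 breast epithelial markers were measured in MCF10A, and per 1000000 summed values of a library they summed to 5343–6040 with siNT, 3833–4223 with miR-28 and 3057–3785 with miR-708. For RPE-1, 5 of 7 retinal pigment epithelial markers were measured (RPE65 and TYR were not analysed here), and they summed to 79.2–107 per 1000000 with siNT, 58.5–60.0 with miR-28 and 73.2–80.9 with miR-708. Of these, PMEL was uneven with siNT, at 5.41 ± 8.81 (SD, n = 3). Neither list was confined to its line. With siNT the 2 breast markers measured in RPE-1 summed to 332–381, mostly KRT18, and the 4 retinal markers measured in MCF10A to 28.6–41.4. BEST1 was higher in MCF10A (28.1) than in RPE-1 (4.64). Of 6 leukocyte markers, 3 were measured in MCF10A and 2 in RPE-1; the others were not analysed here. Their summed level was higher with the mimics, going from 6.94–8.30 per 1000000 with siNT to 13.3–29.9 with miR-28 and 23.1–42.3 with miR-708 in MCF10A, and from 8.80–13.1 to 14.9–114 and 167–259 in RPE-1. CD68 and, in MCF10A, HLA-DRA made up most of this sum. The defining leukocyte gene PTPRC averaged 0.196, 0.210 and 0.222 per 1000000 in RPE-1 with siNT, miR-28 and miR-708. The part of these marker changes in the results was not tested.

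With siNT, JAK1 was the most abundant of the 9 transcripts in both lines and SOCS1 and IRF7 were the least abundant. Levels were compared between genes as value per 1000000 summed values and per kilobase of the longest annotated transcript. In MCF10A the mean level of JAK1 was 29.7 ± 2.92 (SD, n = 3), followed by IFNAR1 at 12.9 ± 0.229, STAT2 at 9.99 ± 1.64, TYK2 at 6.62 ± 0.879 and IFNAR2 at 6.28 ± 0.231. The remaining levels in MCF10A were 4.42 ± 0.984 for IRF1, 2.59 ± 0.270 for IRF9, 0.299 ± 0.041 for IRF7 and 0.177 ± 0.080 for SOCS1. TYK2 and IFNAR2 overlapped between libraries, and all other neighbours in this order were separate in all 3 libraries. In RPE-1 the order began with JAK1 at 46.1 ± 4.84 (SD, n = 3), STAT2 at 24.1 ± 1.66, IFNAR1 at 16.0 ± 1.54 and TYK2 at 8.85 ± 0.955. It ended with IRF1 at 5.97 ± 0.665, IFNAR2 at 5.36 ± 0.398, IRF9 at 4.52 ± 0.366, IRF7 at 0.535 ± 0.104 and SOCS1 at 0.339 ± 0.035. IRF1 and IFNAR2 overlapped there, and the other neighbours did not. The place of IRF1 depends on the length used, since its median annotated transcript is 501.5 bases long, and by median length it came 1st in MCF10A and 2nd in RPE-1.

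**Figure D1:**
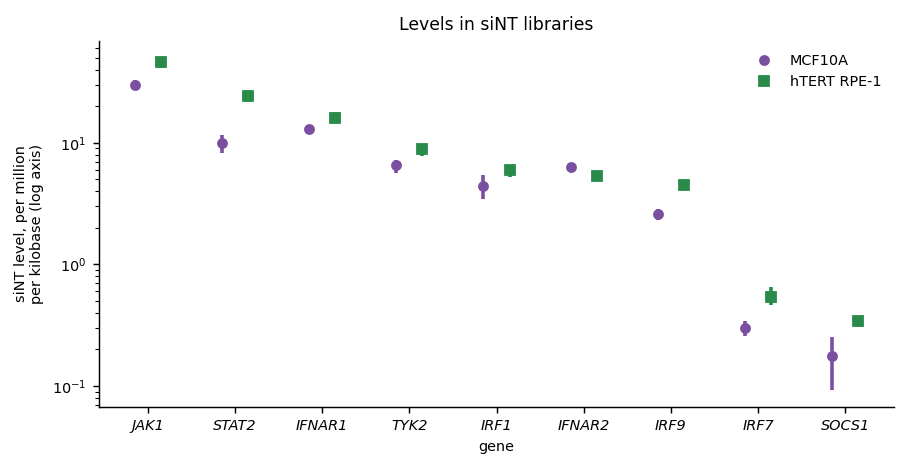
Levels of the 9 genes in siNT libraries (vertical axis, per 1000000 summed values per kilobase, log scale) by gene, with circles for MCF10A and squares for RPE-1. Symbols are means of 3 libraries and lines run from the lowest to the highest library. JAK1 stood highest in both lines (29.7 and 46.1), and STAT2 showed the widest gap between the lines (9.99 and 24.1).

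With siNT, 8 of the 9 genes were higher in RPE-1 than in MCF10A when expressed per 1000000 summed values. The ratio of RPE-1 to MCF10A was 2.41 for STAT2, 1.92 for SOCS1, 1.79 for IRF7, 1.74 for IRF9, 1.55 for JAK1, 1.35 for IRF1, 1.34 for TYK2 and 1.24 for IFNAR1. IFNAR2 was the exception, at 0.854. The tables were scaled separately by line, so these ratios carry no test. The share of all genes higher in RPE-1 was not determined, so the count does not set the 9 genes apart. Among all listed genes of its line, STAT2 stood at the 69.0 percentile in MCF10A and at the 88.7 percentile in RPE-1, while IRF7 stood at the 12.8 and 18.3 percentiles. By this measure IFNAR2 was not lower in RPE-1, at the 58.5 percentile in MCF10A and the 58.9 percentile in RPE-1.

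The 9 genes did not change together with the mimics. STAT2, IRF9 and IRF1 were higher with both mimics (STAT2 with miR-28 in MCF10A just missed the threshold), IRF7 with miR-708 in both lines and with miR-28 in RPE-1, JAK1 was lower, mainly in RPE-1, and SOCS1 passed no test. Differences were tested with limma on log2(value + 1), so a log2 fold change here understates the change of low genes, and a gene was called at a Benjamini-Hochberg adjusted p below 0.05 over all genes tested. In MCF10A with miR-28, 2 of the 9 were called higher and 0 lower, where 10.7% of all 14726 genes tested were higher and 12.0% lower. With miR-708 in MCF10A, 4 were higher and 1 lower, against 15.5% and 17.3% of all genes. In RPE-1 with miR-28, 5 were higher and 1 lower, against 23.3% and 23.5% of 14527 genes tested. With miR-708 in RPE-1, 6 were higher and 2 lower, against 30.9% and 31.2%. Over the 9 genes the median log2 fold change was 0.31 and 0.49 in MCF10A and 0.56 and 0.66 in RPE-1, for miR-28 and miR-708, where the median of all genes was within 0.01 of 0. The count with miR-28 in RPE-1 was again 6 without replicate 1, and the count with miR-708 in MCF10A was again 5 without replicate 7. These are bulk libraries, in which fewer cells that express a gene and less RNA per cell cannot be told apart.

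**Figure D2:**
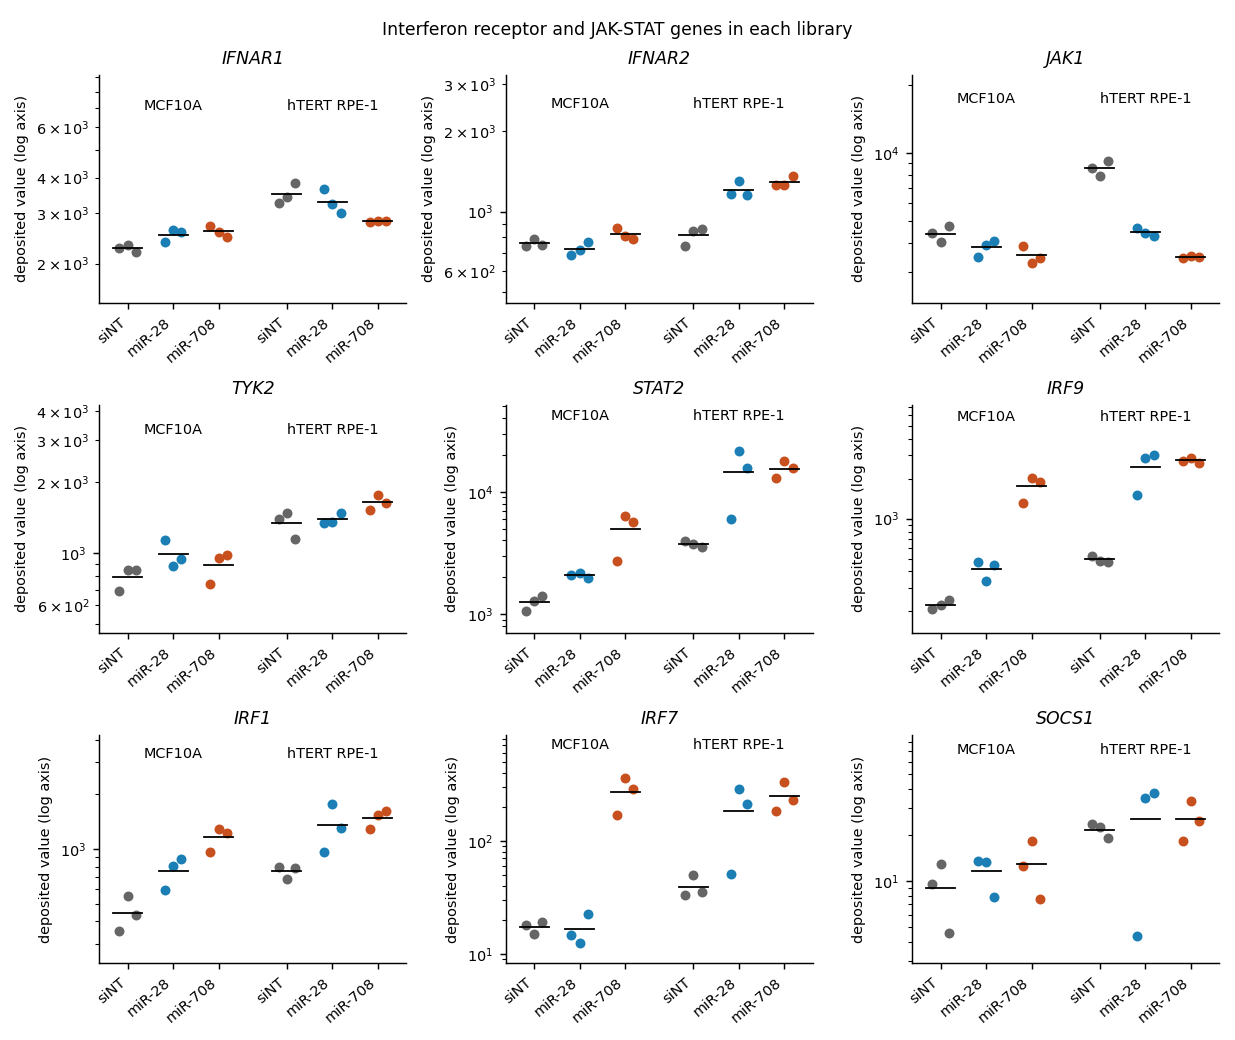
Deposited value (vertical axis, log scale, taken to be a size-factor scaled estimated count) of each of the 9 genes in each of 18 libraries, by line and treatment. Points are libraries and black bars are means of 3. STAT2, IRF9 and IRF7 with miR-28 in RPE-1 show 1 library, replicate 1, far below the other 2 (6015 against 21533 and 15732 for STAT2).

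IFNAR2 rose in RPE-1 with both mimics, and IFNAR1 fell there with miR-708 under the deposited scaling but not under scaling by library size. Neither passed the test in MCF10A. IFNAR2, the chain that binds interferon most tightly, gave values of 742, 848 and 863 with siNT in RPE-1, 1164, 1301 and 1156 with miR-28 and 1257, 1257 and 1356 with miR-708. Every library with a mimic was thus above every siNT library. The log2 fold changes were 0.56 (SE 0.09, adjusted p = 0.000724) and 0.66 (SE 0.09, adjusted p = 0.000127). In MCF10A the values of IFNAR2 were 746, 788 and 751 with siNT, 685, 719 and 772 with miR-28 and 869, 814 and 790 with miR-708. Neither difference passed the test there, with 95% confidence intervals of the log2 fold change of -0.29 to 0.14 and -0.10 to 0.33.

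IFNAR1, the chain that holds TYK2, had values of 3269, 3421 and 3826 with siNT in RPE-1, 3659, 3230 and 3002 with miR-28 and 2803, 2821 and 2812 with miR-708. The miR-708 libraries lay below all siNT libraries, while those with miR-28 overlapped them. The log2 fold change with miR-708 was -0.31 (SE 0.09, adjusted p = 0.0126), but under scaling by library size, which moved the median of all genes by 0.32 in this comparison, it was 0.0043 and the call was lost (adjusted p = 0.969). With miR-28 it was -0.09 (95% interval -0.30 to 0.12, adjusted p = 0.451). In MCF10A the values were 2270, 2316 and 2191 with siNT, 2374, 2620 and 2583 with miR-28 and 2709, 2588 and 2478 with miR-708. All mimic libraries were above all siNT libraries, by 1.12-fold and 1.15-fold on the means, with log2 fold changes of 0.16 and 0.20 that did not pass the test (adjusted p = 0.190 and 0.0918). They did pass under library size scaling, at 0.27 (adjusted p = 0.0296) and 0.34 (adjusted p = 0.00697), and under quantile normalization, at 0.25 (adjusted p = 0.0484) and 0.27 (adjusted p = 0.0235).

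JAK1, the kinase bound to IFNAR2, fell in RPE-1 with both mimics. Its values were 8624, 7958 and 9250 with siNT, 4687, 4420 and 4293 with miR-28 and 3427, 3503 and 3474 with miR-708. The 3 groups did not overlap, and the means with the mimics were 51.9% and 40.3% of the siNT mean. In log2 terms the changes were -0.95 (SE 0.08, adjusted p = 1.06e-05) and -1.31 (SE 0.08, adjusted p = 5.23e-07). Replicate 1 of miR-28, which stood apart for other genes, was the highest of its group for JAK1 but close to the others. In MCF10A the values were 4451, 4042 and 4747 with siNT, 3468, 3935 and 4092 with miR-28 and 3881, 3286 and 3447 with miR-708.

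Only the second of these MCF10A differences passed the test, with a log2 fold change of -0.32 (SE 0.10, adjusted p = 0.0352), and it was -0.20 (SE 0.10, adjusted p = 0.178) with miR-28. The JAK1 call with miR-708 in MCF10A was lost without siNT replicate 7 (adjusted p = 0.0850) or 9 (0.128) and without miR-708 replicate 8 (0.126) or 9 (0.105). It was lost as well under library size scaling (-0.18, adjusted p = 0.197), quantile normalization (-0.25, adjusted p = 0.0737) and a fit without an intensity trend (adjusted p = 0.0680). The 3′ UTR of JAK1 holds the 7-letter seed match printed above. That of IRF1, which rose with both mimics, also holds a 7-letter match. Whether either match had a part in these changes was not tested.

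TYK2, the kinase bound to IFNAR1, had values of 690, 844 and 849 with siNT in MCF10A, 1134, 885 and 944 with miR-28 and 739, 956 and 985 with miR-708. All 3 libraries with miR-28 were above those with siNT, while those with miR-708 overlapped them. In RPE-1 the values were 1388, 1482 and 1149 with siNT, 1337, 1351 and 1476 with miR-28 and 1517, 1769 and 1635 with miR-708. Among these, only miR-708 in RPE-1 passed the test, with a log2 fold change of 0.30 (SE 0.11, adjusted p = 0.0325). That call was lost without siNT replicate 1 (adjusted p = 0.0514) or 3 (0.109), without miR-708 replicate 2 (0.112) or 3 (0.0733), and without an intensity trend (0.0535). The other log2 fold changes of TYK2 were 0.31 and 0.16 in MCF10A and 0.06 with miR-28 in RPE-1.

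Both ISGF3 subunits rose in RPE-1 with either mimic. STAT2, the subunit that activates transcription, had values of 3988, 3771 and 3560 with siNT in RPE-1, 6015, 21533 and 15732 with miR-28 and 13028, 17852 and 15667 with miR-708. All 6 mimic libraries were above the siNT libraries, although replicate 1 of miR-28 was below every other mimic library. The log2 fold changes were 1.75 (SE 0.36, adjusted p = 0.00257) and 2.03 (SE 0.36, adjusted p = 0.000600), and without replicate 1 of miR-28 the first was 2.29 (adjusted p = 1.22e-06). In every alternative fit the first was at least 1.37, with an adjusted p of at most 0.0127. IRF9, the subunit that contacts DNA, had values of 526, 478 and 474 with siNT, 1515, 2878 and 3011 with miR-28 and 2725, 2873 and 2641 with miR-708. On the means it was 5.01-fold and 5.57-fold higher with the mimics. The fold changes in log2 were 2.26 (SE 0.21, adjusted p = 1.97e-05), or 2.58 without replicate 1 (adjusted p = 1.70e-08), and 2.48 (SE 0.21, adjusted p = 4.44e-06). Across the alternative fits the change of IRF9 with miR-28 was at least 2.08 (adjusted p at most 0.000286).

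In MCF10A the ISGF3 subunits rose steeply with miR-708 and less with miR-28. STAT2 values were 1055, 1275 and 1401 with siNT, 2092, 2160 and 1972 with miR-28 and 2718, 6357 and 5708 with miR-708. The 3 groups did not overlap. The log2 fold change with miR-708 was 1.90 (SE 0.25, adjusted p = 0.000299), and 2.29 without replicate 7 (adjusted p = 1.90e-06). It was at least 1.67 in every alternative fit, with an adjusted p of at most 0.00351. With miR-28 it was 0.75 (SE 0.25) and just missed the threshold (adjusted p = 0.0521). The siNT and miR-28 libraries of MCF10A deviated together by replicate number, and in the fit with the number as a replicate block this difference passed (0.75, adjusted p = 0.00823). It passed too under library size scaling (adjusted p = 0.0392), under quantile normalization (0.0465) and in a fit to the 6 libraries of the 2 groups (0.00332).

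IRF9 in MCF10A was at 207, 225 and 243 with siNT, 469, 341 and 446 with miR-28 and 1322, 2040 and 1885 with miR-708. These groups did not overlap either, and the means were 1.86-fold and 7.77-fold above siNT. The log2 fold changes were 0.88 (SE 0.18, adjusted p = 0.00564) and 2.93 (SE 0.18, adjusted p = 1.77e-06), and without replicate 7 of miR-708 the second was 3.12 (adjusted p = 1.45e-06). Across the alternative fits the second was at least 2.81, with an adjusted p of at most 0.000236.

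IRF1, a transcription factor induced directly through GAS sites, rose in each line with each mimic. In MCF10A its values were 353, 547 and 433 with siNT, 591, 805 and 879 with miR-28 and 965, 1294 and 1223 with miR-708. In RPE-1 they were 791, 685 and 784 with siNT, 967, 1771 and 1309 with miR-28 and 1296, 1532 and 1620 with miR-708. No mimic library overlapped the siNT libraries of its line. Fitted log2 fold changes in MCF10A were 0.77 (SE 0.19, adjusted p = 0.0147) and 1.39 (SE 0.19, adjusted p = 0.000364), and in RPE-1 0.80 (SE 0.18, adjusted p = 0.00507) and 0.97 (SE 0.18, adjusted p = 0.000968). The first of these was lost without MCF10A siNT replicate 7 (adjusted p = 0.0537) and without miR-28 replicate 8 (0.0567) or 9 (0.0581). Without replicate 1 of miR-28 the RPE-1 change with miR-28 was 1.02 (adjusted p = 0.000236), and without replicate 7 of miR-708 the MCF10A change with miR-708 was 1.52 (adjusted p = 0.000382). In every alternative fit these changes were at least 0.58 (adjusted p at most 0.0223) and 1.24 (adjusted p at most 0.00331), respectively.

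IRF7, the factor that amplifies interferon gene transcription, started low and gave the largest fold changes among the 9 genes with miR-708. In MCF10A its values were 17.96, 15.0 and 19.2 with siNT, 14.7, 12.4 and 22.7 with miR-28 and 169, 360 and 288 with miR-708. The miR-28 libraries overlapped those with siNT, while the mean with miR-708 was 15.7-fold higher. The log2 fold changes were -0.10 (95% interval -0.85 to 0.66, adjusted p = 0.866) and 3.83 (SE 0.34, adjusted p = 3.38e-05), the second being 4.14 without replicate 7 of miR-708 (adjusted p = 2.96e-05). In every alternative fit the second was at least 3.56, with an adjusted p of at most 0.000406. In RPE-1 the values were 32.8, 49.7 and 35.2 with siNT, 51.3, 286 and 212 with miR-28 and 185, 329 and 231 with miR-708. Replicate 1 of miR-28, at 51.3, was barely above the highest siNT library. The fitted changes in log2 were 1.90 (SE 0.52, adjusted p = 0.0122) and 2.61 (SE 0.52, adjusted p = 0.00128), and without that library the first was 2.64 (adjusted p = 2.44e-05). Across the alternative fits the first was as low as 1.41, with an adjusted p of up to 0.0492.

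SOCS1, the inhibitor of JAK1 and TYK2, passed no test in any comparison. Its values in MCF10A were 9.58, 12.9 and 4.56 with siNT, 13.4, 13.3 and 7.88 with miR-28 and 12.5, 18.2 and 7.64 with miR-708. In RPE-1 they were 23.3, 22.3 and 19.1 with siNT, 4.36, 34.7 and 37.3 with miR-28 and 18.05, 33.3 and 24.7 with miR-708. All groups overlapped within a line. The lowest value, 4.36, was that of miR-28 replicate 1 and is close to the value of 3 reads. The log2 fold changes were 0.39 (95% interval -0.76 to 1.53) and 0.49 (-0.66 to 1.63) in MCF10A and -0.21 (-1.62 to 1.20) and 0.19 (-1.22 to 1.60) in RPE-1, so the intervals include a rise of 2-fold. The RPE-1 value with miR-28 rests on replicate 1, without which it turned from -0.21 to 0.72 (adjusted p = 0.0986).

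**Figure D3:**
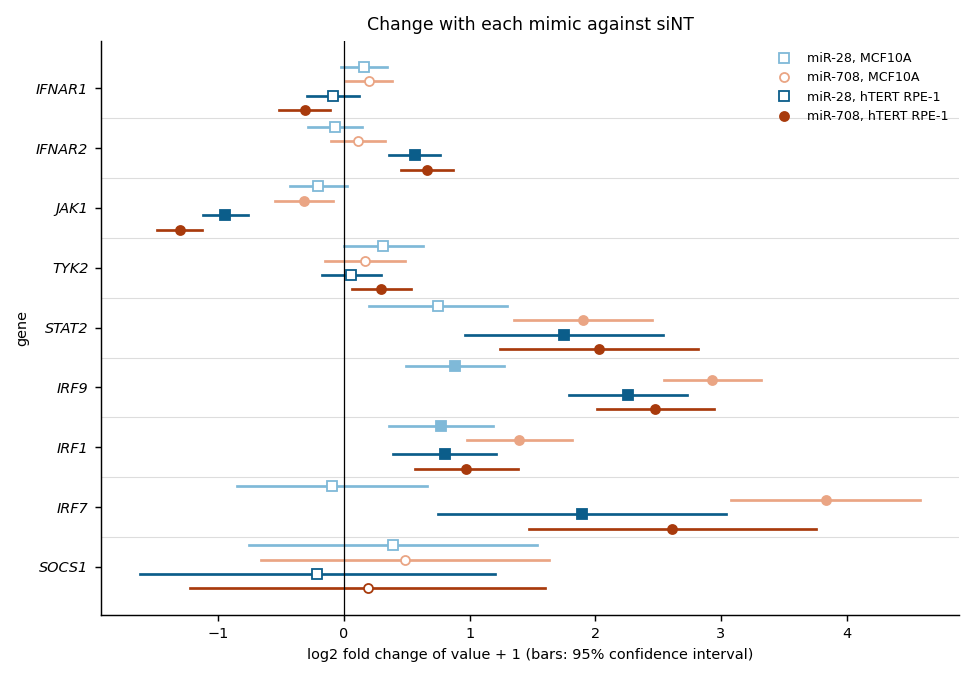
Log2 fold change against siNT (horizontal axis, of value + 1) for each of the 9 genes, with squares for miR-28 and circles for miR-708, pale for MCF10A and dark for RPE-1. Bars are 95% confidence intervals from limma and filled symbols are calls at an adjusted p below 0.05. JAK1 in RPE-1 lies furthest left (-0.95 and -1.31) and IRF7 with miR-708 in MCF10A furthest right (3.83).

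The mimics were next compared with each other. In MCF10A, miR-708 gave more IRF9, IRF7 and STAT2 than miR-28, so 3 of the 9 genes were called higher and 0 lower, against 1.28% and 0.265% of all genes tested. The log2 differences were 2.05 for IRF9 (SE 0.18, adjusted p = 4.83e-05), 3.93 for IRF7 (SE 0.34, adjusted p = 5.36e-05) and 1.16 for STAT2 (SE 0.25, adjusted p = 0.0456). The STAT2 call was lost in 5 of the 6 fits that left out 1 library. Its adjusted p was 0.107, 0.133 and 0.130 without miR-28 replicates 7, 8 and 9, and 0.161 and 0.212 without miR-708 replicates 8 and 9, while without replicate 7 of miR-708 it was 5.42e-05. Library size scaling (0.0559), quantile normalization (0.0628), no intensity trend (0.158) and a fit to 2 groups (0.107) lost it as well. The remaining 6 genes passed no test, with IRF1 at 0.62 (95% interval 0.21 to 1.04, adjusted p = 0.156).

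In RPE-1, 0 genes were called higher and 1 lower with miR-708 than with miR-28, against 9.88% and 11.4% of all genes. That gene was JAK1, lower by a log2 difference of -0.36 (SE 0.08, adjusted p = 0.0106), with values of 3427–3503 against 4293–4687. Under library size scaling the tally turned to 2 higher and 0 lower, as JAK1 was at -0.13 (adjusted p = 0.294), IFNAR2 at 0.33 (adjusted p = 0.0279) and TYK2 at 0.47 (adjusted p = 0.0109). That scaling moved the median of all genes by 0.23 in this comparison and the share of all calls that were higher from 46.5% to 84.8%. The 95% intervals for IRF9 (-0.25 to 0.69), STAT2 (-0.51 to 1.07) and IRF7 (-0.43 to 1.86) do not show that the mimics acted alike in RPE-1. Without replicate 1 of miR-28 the differences were -0.10 for IRF9, -0.26 for STAT2 and -0.03 for IRF7, all with changed sign and none passing the test.

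The last comparison asked whether each mimic changed a gene differently in the 2 lines, as the log2 fold change in RPE-1 minus that in MCF10A. With miR-28, 3 of the 9 genes had a higher response in RPE-1 and 1 a lower one, against 12.1% and 11.3% of 13339 genes. IRF9 rose more by 1.38 (SE 0.28, adjusted p = 0.00144), from 0.88 in MCF10A to 2.26 in RPE-1. For IRF7 the difference was 1.99 (SE 0.62, adjusted p = 0.0266), and for IFNAR2 it was 0.63 (SE 0.13, adjusted p = 0.00203). JAK1 went the other way, at -0.74 (SE 0.13, adjusted p = 0.000528). The IRF7 difference was lost without MCF10A miR-28 replicate 8 (adjusted p = 0.0525), without RPE-1 siNT replicate 1 (0.0713) or 3 (0.0609) and without RPE-1 miR-28 replicate 2 (0.0798) or 3 (0.0800). It was 2.74 (adjusted p = 0.000121) without replicate 1 of that group. STAT2 differed by 1.003 (SE 0.44, adjusted p = 0.103), or by 1.54 without the same library (adjusted p = 0.000971), which brings the count to 5 genes. That library was the lowest of its group for STAT2, IRF9 and IRF7, so leaving it out raises these differences by construction.

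With miR-708, 1 gene had a higher and 2 a lower response in RPE-1, against 20.2% and 19.6% of all genes. IFNAR2 differed by 0.55 (SE 0.13, adjusted p = 0.00279), JAK1 by -0.99 (SE 0.13, adjusted p = 7.62e-06) and IFNAR1 by -0.51 (SE 0.13, adjusted p = 0.00267). The differences for IRF9 (-0.45, adjusted p = 0.198), IRF7 (-1.22, adjusted p = 0.128), IRF1 (-0.42, adjusted p = 0.215) and STAT2 (0.13, adjusted p = 0.841) did not pass the test. The median difference over the 9 genes was 0.03 with miR-28 and -0.42 with miR-708. Both mimics share the siNT libraries of a line, so these 2 comparisons are not independent of each other.

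**Figure D4:**
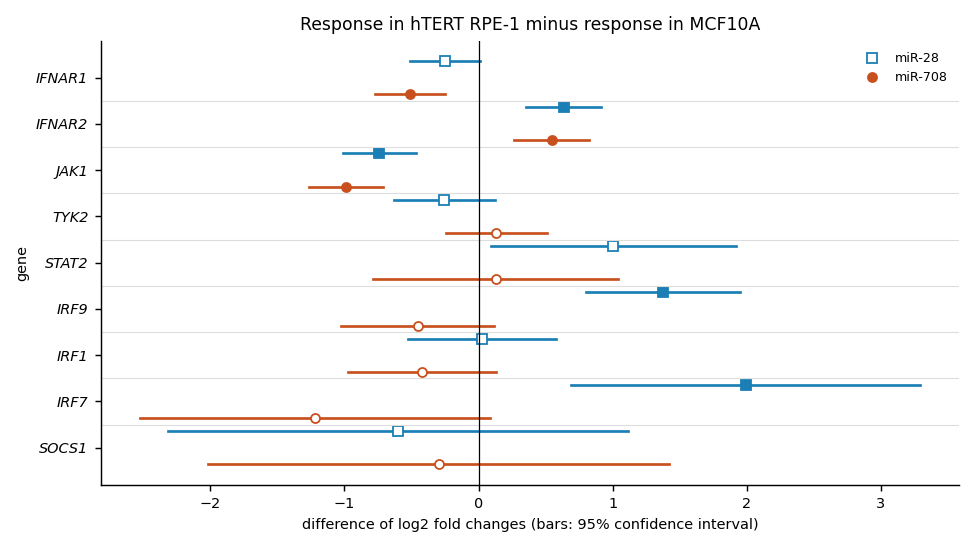
Difference between the lines in the log2 fold change (horizontal axis, RPE-1 minus MCF10A) for each gene, with squares for miR-28 and circles for miR-708. Bars are 95% confidence intervals and filled symbols are calls at an adjusted p below 0.05. JAK1 is left of 0 (-0.74 and -0.99) and IFNAR2 right of 0 (0.63 and 0.55) for both mimics, while IRF9 (1.38) and IRF7 (1.99) are called for miR-28.

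A wider list of 43 pathway genes was examined beside the 9. Of its 9 interferon genes, IFNE was measured in both lines and IFNA1 in RPE-1, and neither passed a test. IFNE, an epithelial type I interferon, had values of 51.1–64.6 with siNT, 60.1–81.8 with miR-28 and 29.2–77.3 with miR-708 in MCF10A, and of 327–448, 368–412 and 238–372 in RPE-1. The other interferon genes of the list, IFNB1 among them, were not analysed here. Over the whole list, 3 genes were higher and 2 lower of 32 tested with miR-28 in MCF10A (10.7% and 12.0% of all genes), and 8 and 4 with miR-708 (15.5% and 17.3%). In RPE-1, 11 were higher and 2 lower of 31 tested with miR-28 (23.3% and 23.5% of all genes), and 11 and 5 with miR-708 (30.9% and 31.2%). The median log2 fold changes of the list were between 0.03 and 0.15 in these 4 comparisons. Between the mimics, 2 were higher and 0 lower with miR-708 in MCF10A (1.28% and 0.265% of all genes), and 1 and 2 in RPE-1 (9.88% and 11.4%). In the difference between the lines, 6 were higher and 1 lower of 30 with miR-28 (12.1% and 11.3% of all genes), and 5 and 3 with miR-708 (20.2% and 19.6%). Without RPE-1 miR-28 replicate 1 the counts were 12 and 2 with miR-28 in RPE-1 and 8 and 1 in the difference between the lines, and without MCF10A miR-708 replicate 7 they were 9 and 3 with miR-708 in MCF10A and 4 and 0 between the mimics there.

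USP18, which blocks IFNAR2 in feedback, rose with miR-708 in MCF10A, from 81.4, 131 and 98.6 to 925, 1647 and 1426, but was at 99.2, 102 and 131 with miR-28. On the log2 scale the changes were 3.66 (SE 0.24, adjusted p = 3.05e-06) and 0.11 (SE 0.24, adjusted p = 0.767). In RPE-1 it went from 31.9, 38.5 and 55.8 to 356, 4601 and 3420 with miR-28 and to 4322, 5136 and 5580 with miR-708. These were log2 fold changes of 5.40 (SE 0.74, adjusted p = 0.000224) and 6.89 (SE 0.74, adjusted p = 1.99e-05). Without replicate 1 of miR-28 the RPE-1 change with miR-28 was 6.56 (adjusted p = 7.83e-09), and without replicate 7 of miR-708 the MCF10A change with miR-708 was 3.90 (adjusted p = 3.00e-06). Of the feedback inhibitors, USP18 thus rose in 3 of the 4 comparisons with siNT. SOCS1 passed the test in none, but its values were low and its intervals include a rise of 2-fold. The tests therefore do not show that SOCS1 stayed unchanged where USP18 rose.

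Of the other receptor chains, IFNLR1, the specific chain of the interferon lambda receptor, rose in RPE-1, from a mean of 19.7 ± 10.3 (SD, n = 3) with siNT to 66.5 ± 33.6 and 91.2 ± 5.92. Its log2 fold changes were 1.76 (adjusted p = 0.00951) and 2.32 (adjusted p = 0.00121), and in MCF10A they were -0.04 and 0.04, neither called. JAK2, the kinase of the interferon gamma receptor, rose with miR-28 (1.16, adjusted p = 0.00212) and miR-708 (1.67, adjusted p = 0.000111) in RPE-1. In MCF10A it rose with miR-708 (0.74, adjusted p = 0.00386). STAT4 rose in MCF10A with miR-28 (1.04, adjusted p = 0.0205) and miR-708 (1.19, adjusted p = 0.00718), and STAT5A with miR-708 (1.19, adjusted p = 0.00575). With miR-28 in RPE-1 the change of STAT4 was 1.07 but did not pass the test (adjusted p = 0.147). Its differences between the lines were 0.03 with miR-28 (adjusted p = 0.982) and 0.18 with miR-708 (adjusted p = 0.843), neither called. No RPE-1 value of STAT5A is given here. Of the 16 other inhibitors, all tested in MCF10A, 0 were higher and 2 lower with miR-28, where 10.7% and 12.0% of all genes were, and 1 and 3 with miR-708, against 15.5% and 17.3%. Of the 15 tested in RPE-1, 4 were higher and 0 lower with miR-28, against 23.3% and 23.5% of all genes, and 4 and 3 with miR-708, against 30.9% and 31.2%.

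**Figure D5:**
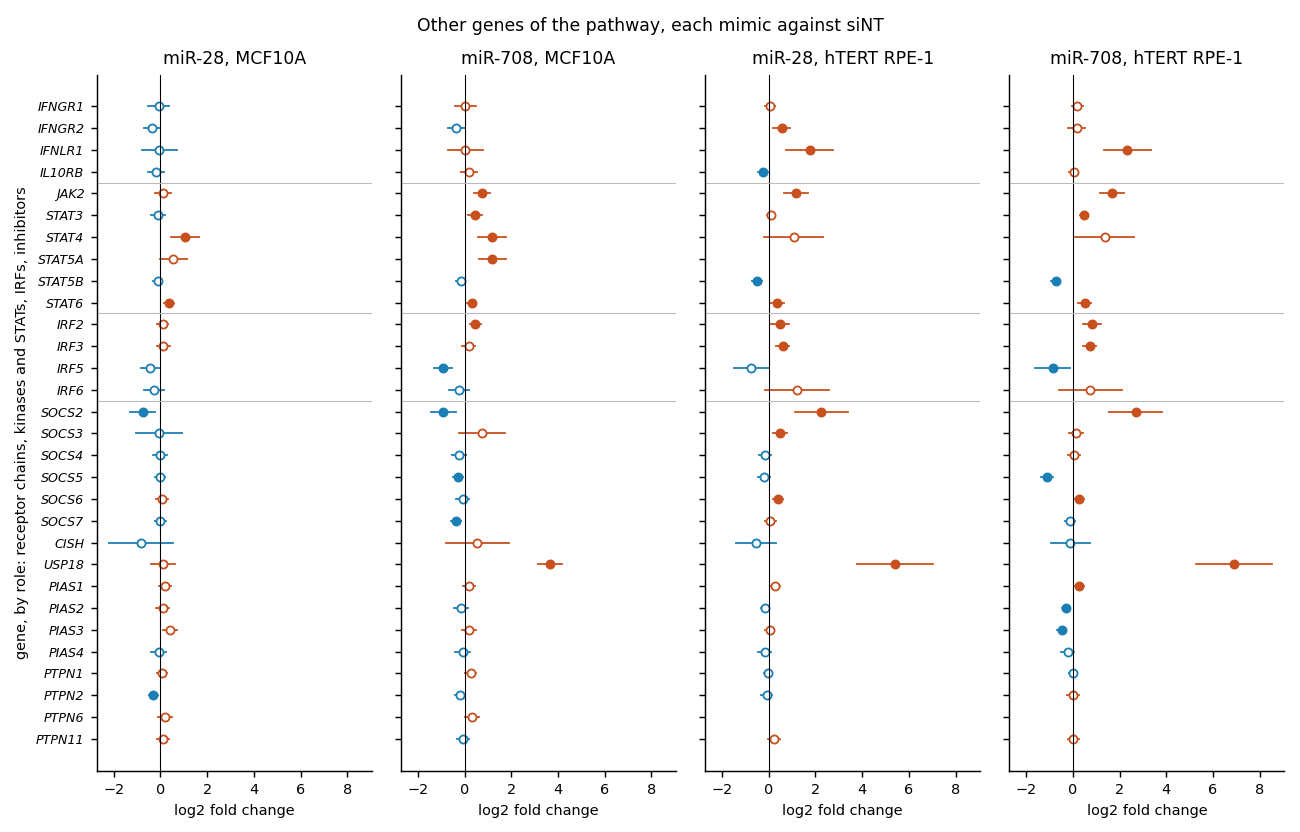
Log2 fold change against siNT (horizontal axis) of pathway genes outside the 9, 1 panel per mimic and line, grouped from top to bottom as receptor chains, kinases and STATs, IRFs and inhibitors. Bars are 95% confidence intervals, filled symbols are calls at an adjusted p below 0.05, and orange and blue mark higher and lower. USP18 lies furthest right in the miR-708 panels of both lines (3.66 in MCF10A and 6.89 in RPE-1).

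The output of the pathway was followed with 10 interferon-stimulated effector genes, such as IFIT1, IFIT3, MX1 and ISG15. In MCF10A they summed to 67.2–84.8 per 1000000 with siNT, 95.3–159 with miR-28 and 2152–5031 with miR-708. In RPE-1 the 9 measured (without RSAD2, not analysed here) summed to 63.2–82.6 with siNT. With miR-28 they summed to 643 in replicate 1 and to 9413 and 5727 in replicates 2 and 3, and with miR-708 to 8132–10499.9. Replicate 1 was thus the lowest of the mimic-treated RPE-1 libraries for the effectors as for STAT2, IRF9, IRF1 and IRF7. The effectors were called higher for 5 of 10 (1 lower) with miR-28 and 10 of 10 with miR-708 in MCF10A, where 10.7% (12.0% lower) and 15.5% of all genes were. In RPE-1 they were called higher for 9 of 9 with either mimic, against 23.3% and 30.9% of all genes. Their median log2 fold changes were 1.24 and 6.53 in MCF10A and 5.56 and 6.98 in RPE-1, and the miR-28 value in RPE-1 was 6.75 without replicate 1 and the miR-708 value in MCF10A 6.92 without replicate 7.

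For each of the 9 genes, the genes most like it across libraries were found by the lower of its 2 Pearson correlations, over the 9 libraries of each line, among 10233 genes with a mean value of at least 100. The libraries of a line share their treatments and scaling, so these values are descriptions. STAT2 was most like SHFL (0.983), UBA7 (0.970) and PARP10 (0.965), and IRF9 was most like IFIT3 (0.987) and IFIT1 (0.987). IRF7 was most like PARP12 (0.982), UBE2L6 (0.982) and LGALS3BP (0.979), and IRF1 was like APOL2 (0.975) and TRIM22 (0.966). JAK1 was nearest to HDAC1 (0.935), IFNAR1 to CLTC (0.902), IFNAR2 to AKIP1 (0.918) and TYK2 to TOP3B (0.943). SOCS1 had no comparably close neighbour, the nearest being SYMPK (0.792).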

How the data were processed

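RNAseq of polyadenylated RNA was conducted on 18 libraries. According to the study's methods, the authors aligned reads to hg38 with HISAT2 2.1.0, quantified RefSeq Transcripts version 93 in Partek Flow (E/M algorithm) and ran DESeq2. The signal the authors deposited, 1 table per line, was taken to be an estimated count scaled by a size factor of the median-of-ratios kind. This unit was inferred from the values and the study's methods. Depth was estimated from the steps between low values, 81.0–86.6% of which were whole multiples of a step within a tolerance of 0.02, so whole reads were not recovered. Such floors cover counting error only. Tables of the authors' own comparisons were not used, and all columns of values per library were.

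Genes that reached 10 in 3 or more of the 9 libraries were fitted as log2(value + 1) with limma 3.58.1 in R 4.3.3 (3 group means, intensity trend, Benjamini-Hochberg adjustment over all genes tested, call below 0.05). Differences between lines used the fold changes and standard errors of the 2 fits with Welch-Satterthwaite degrees of freedom. Scripts were tested on simulated data. Alternatives were pseudocounts of 0.5 and 5, no filter, a minimum of 50, library size scaling, quantile normalization, a replicate block, no trend, 2 groups alone, each library left out and a 2-fold limit. Refits of the lists without 2 libraries were added after seeing the data. The genes and lists were chosen with earlier results of these data known. The genes named are the 9 chosen, members of the wider list called with an absolute log2 fold change of at least 1 and, for likeness, up to 3 genes per chosen gene; some genes that these rules choose are not reported here, though counts include them. Replicate numbers were taken to pair libraries where all 3 correlations of their deviations exceeded 0.1. This held in MCF10A for siNT with miR-28 (0.263, 0.176 and 0.111) and with miR-708 (0.302, 0.115 and 0.155), and in RPE-1 between the mimics (0.278, 0.198 and 0.134). The 3′ UTRs and transcript lengths came from GENCODE 44, and miRNA and promoter sequences from RefSeq tables of GRCh38.p14. Sequences and figures were handled in Python 3.11.15 with numpy 2.4.6, pandas 2.3.3 and matplotlib 3.10.9.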

Additional observations from a re-analysis of the deposited data

Results flagged for a closer look

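These 7 results stood out because the response of a gene to a mimic differed between the cell lines by the test of the difference itself. With miR-28, the log2 fold change in RPE-1 minus that in MCF10A was 1.38 for IRF9, 1.99 for IRF7, -0.74 for JAK1 and 0.63 for IFNAR2. With miR-708 it was -0.99 for JAK1, -0.51 for IFNAR1 and 0.55 for IFNAR2. The 2 IFNAR2 differences and the 2 JAK1 differences each share the siNT libraries, so they are not independent. IRF9, JAK1, IFNAR1 and IFNAR2 kept their calls in every alternative tried except the 2-fold limit, which IRF7 and IRF9 alone passed. IRF7 lost its call (adjusted p up to 0.0800) without any of 5 single libraries, which are named above. The groups of 3 libraries are too small for a test of single outlying values.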

How the results depend on the processing

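Of 1162 values of the 9 genes under an alternative, 1093 kept their direction and their side of the threshold. With the sign kept, 30 lost a call and 14 gained a call. The other 25 changed sign, among them IFNAR1 with miR-708 in RPE-1, which lost its call as well. Leaving out 1 library at a time, the genes called numbered 1–2, 4–5 and 2–3 in MCF10A (miR-28, miR-708 and between the mimics), 6–6, 7–8 and 1–1 in RPE-1, and 3–5 and 3–3 for the differences between the lines. In MCF10A with miR-28, library size scaling and quantile normalization each gave 4 called genes. A limit of 2-fold left 0 there, 3 and 4 in RPE-1 with miR-28 and miR-708, 0 between the mimics in RPE-1, and 2 and 0 for the differences between the lines. Library size scaling gave 2 between the mimics in RPE-1. It shifted the median of all genes by 0.12 and 0.14 in MCF10A and by 0.09 and 0.32 in RPE-1, and raised the share of called genes that were higher from 47.1% and 47.3% to 66.1% and 67.6% in MCF10A, and from 49.7% to 71.8% with miR-708 in RPE-1.

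The replicate block gave 3, 5 and 4 called genes in MCF10A, 6, 8 and 1 in RPE-1, and 5 and 4 for the differences. Beside STAT2, given above, it added IRF1 between the mimics in MCF10A (0.62, adjusted p = 0.00746) and the differences between the lines of STAT2 with miR-28 (1.003, adjusted p = 0.0405) and of IRF7 with miR-708 (-1.22, adjusted p = 0.0487), for which the numbers do not pair all libraries; it changed no other call of the 9 genes. All values with a changed sign were uncalled under the alternative, and the cause was not tested. Under library size scaling these were 0.039 for IFNAR2 and 0.0085 for IRF7 with miR-28 in MCF10A, and for IFNAR1 in RPE-1 0.0043 with miR-708 and 0.0086 between the mimics. Under quantile normalization, SOCS1 gave -0.14 with miR-28 in MCF10A and -0.027 with miR-708 in RPE-1. Leaving out single libraries turned these signs. With miR-28 against siNT the range was -0.33 to 0.078 for IRF7 in MCF10A (turned without miR-28 replicate 8), -0.049 to 0.13 for TYK2 (without siNT replicate 3) and -0.70 to 0.72 for SOCS1 (without miR-28 replicate 1) in RPE-1. With miR-708 it was -0.024 to 0.40 for SOCS1 in RPE-1 (without miR-708 replicate 2). Between the mimics it was -0.0066 to 0.069 for IFNAR1 (without miR-28 replicate 7) and -0.18 to 0.40 for SOCS1 (without miR-28 replicate 9 or miR-708 replicate 8) in MCF10A. In RPE-1 it was -0.26 to 0.66 for STAT2, -0.10 to 0.39 for IRF9, -0.045 to 0.39 for IRF1, -0.028 to 1.20 for IRF7 and -0.53 to 0.89 for SOCS1, all turned without miR-28 replicate 1. The differences between the lines ranged with miR-28 from -0.19 to 0.24 for IRF1 (turned without each of 4 libraries) and from -1.09 to 0.33 for SOCS1 (without RPE-1 miR-28 replicate 1), and with miR-708 from -0.26 to 0.36 for STAT2 (without MCF10A miR-708 replicate 7) and from -0.60 to 0.076 for SOCS1 (without MCF10A siNT replicate 9). The siNT order by median transcript length and the ISRE core followed by another A (3.57% of windows, SOCS1 among the 9 genes) were values without a test. Depth limits SOCS1, whose values reach the level of a few reads. The wider list and the effectors were refitted without MCF10A miR-708 replicate 7 and without RPE-1 miR-28 replicate 1, an alternative chosen after seeing the data. Without the first, IFNLR1 turned to -0.045 with miR-708 in MCF10A and to -0.0028 between the mimics there, and the effectors' median difference between the lines with miR-708 to -0.35. Without the second, STAT4 turned to -0.11 and the median of the wider list to -0.077 between the mimics in RPE-1. SOCS5 with miR-708 in MCF10A lost its call without the first (-0.26, adjusted p = 0.0704).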

Other observations

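The SOCS family, of which SOCS1 is a member, holds further inhibitors of cytokine signalling, of which SOCS2 and SOCS5 passed tests here. SOCS2 had values of 224, 133 and 225 with siNT in MCF10A, 115, 103 and 116 with miR-28 and 125, 94.8 and 84.0 with miR-708. All mimic libraries were below the siNT libraries, with log2 fold changes of -0.75 (SE 0.24, adjusted p = 0.0438) and -0.91 (SE 0.24, adjusted p = 0.0143). In RPE-1 the same gene was at 19.9, 5.07 and 26.4 with siNT, 96.0, 44 and 86.2 with miR-28 and 95.7, 76.1 and 127 with miR-708. It rose there by 2.26 (SE 0.51, adjusted p = 0.00464) and 2.70 (SE 0.51, adjusted p = 0.000980). The siNT value of 5.07, of replicate 2, is close to the value of 3 reads in that library (3.04) and lowers the siNT mean. Fits of SOCS2 without that library are not reported here. The differences between the lines were 3.01 (SE 0.57, adjusted p = 0.00176) and 3.61 (SE 0.57, adjusted p = 0.000152).

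SOCS5 separated the mimics in RPE-1, with values of 2066, 2189 and 2487 with siNT, 2196, 1937 and 1674 with miR-28 and 1029, 1139 and 973 with miR-708. The miR-708 libraries lay below all others. SOCS5 was lower with miR-708 than with miR-28 by a log2 difference of -0.88 (SE 0.12, adjusted p = 0.00119), and its change against siNT was -1.10 (SE 0.12, adjusted p = 1.80e-05) with miR-708 and -0.22 (SE 0.12, adjusted p = 0.143) with miR-28. Without replicate 1 of miR-28 the last was -0.32 and passed (adjusted p = 0.0452).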
